A study of Mus musculus with 4 samples.

Results

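The open chromatin around 4 genes for transcriptional repressors, Id2, Nfil3, Bcl6 and Zbtb18, was described in cDC1 and in pDC. Members were all open intervals and all footprints that overlapped 4 windows of the mouse mm9 assembly: 25.65 to 25.90 Mb of chromosome 12 for Id2, 53.00 to 53.15 Mb of chromosome 13 for Nfil3, 23.90 to 24.10 Mb of chromosome 16 for Bcl6 and 179.30 to 179.45 Mb of chromosome 1 for Zbtb18. They comprised 83 of 83701 cDC1 intervals and 51 of 51941 pDC intervals, with 449 of 513689 cDC1 footprints and 323 of 312959 pDC footprints. Merging the overlapping intervals of both lists gave 90 regions in the windows, out of 93615 in all.

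The series compared mouse classical dendritic cells of type 1 (cDC1), which cross-present antigen, with plasmacytoid dendritic cells (pDC), which produce type I interferon. Both were derived in vitro from bone marrow, in a culture that ends with Flt3 ligand, and were sorted: cDC1 by CD11c, CD11b and XCR1, and pDC by CD11c and B220 without CD11b. No strain, age or genotype is given in the sources used here, and cultured cells stand in for those of the tissue. Omni-ATAC-seq, in which the transposase Tn5 cuts accessible DNA, was run on 2 samples per cell type, labelled classical and plasmacytoid dendritic cell, and the authors merged both samples into 1 list of MACS2 peaks and 1 list of HINT-ATAC footprints per cell type. No spread between replicates can therefore be given and no p-value was computed. All intervals below are 95% intervals for counting error only, and the reads carried no molecular identifiers. The cell labels were not checked against marker genes, because no mm9 gene annotation was used.

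Repressors take part in setting the dendritic cell lineages apart. Id2 is a helix-loop-helix protein without a DNA-binding region. It pairs with E proteins such as Tcf4, the factor that maintains pDC, keeps them off DNA, and is required for cDC1. Nfil3 is a basic leucine zipper repressor that acts early in the path to cDC1. Bcl6 and Zbtb18 carry a BTB domain and zinc fingers: Bcl6 recruits corepressors and is best known from germinal centre B cells, while Zbtb18 (also called RP58) is best known from cortical neurons and binds a sequence that resembles an E-box, the site of E proteins. A window of this size can hold parts of neighbouring genes, so an interval in a window was not assigned to a gene.

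The promoters of the 4 genes are shown because E proteins are the partners of Id2 and because the E-box word CANNTG was the only word of the 7 searched, apart from the Zbtb18 word, that they hold. The sequences are the 250 bases before a start of transcription in RefSeq (GRCm38.p6), 5′ to 3′ on the strand of the gene, with the match in capitals. For Bcl6 2 starts were listed and for Zbtb18 5, and 1 per gene was used, to which the matches and distances below refer.
Id2: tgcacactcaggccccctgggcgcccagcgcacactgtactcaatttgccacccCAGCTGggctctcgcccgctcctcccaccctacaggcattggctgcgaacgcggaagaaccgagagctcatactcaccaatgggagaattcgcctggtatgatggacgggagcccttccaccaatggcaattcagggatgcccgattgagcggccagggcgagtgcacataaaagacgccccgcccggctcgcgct
Nfil3: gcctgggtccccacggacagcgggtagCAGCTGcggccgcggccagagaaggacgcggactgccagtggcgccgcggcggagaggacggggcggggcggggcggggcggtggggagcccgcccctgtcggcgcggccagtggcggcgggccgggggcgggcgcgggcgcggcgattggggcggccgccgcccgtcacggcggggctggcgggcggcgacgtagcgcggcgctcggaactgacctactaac
Bcl6: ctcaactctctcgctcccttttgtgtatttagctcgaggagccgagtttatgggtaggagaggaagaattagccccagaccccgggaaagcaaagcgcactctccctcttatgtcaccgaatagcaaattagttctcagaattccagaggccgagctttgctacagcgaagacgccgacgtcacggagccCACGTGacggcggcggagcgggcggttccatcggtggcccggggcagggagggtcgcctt
Zbtb18: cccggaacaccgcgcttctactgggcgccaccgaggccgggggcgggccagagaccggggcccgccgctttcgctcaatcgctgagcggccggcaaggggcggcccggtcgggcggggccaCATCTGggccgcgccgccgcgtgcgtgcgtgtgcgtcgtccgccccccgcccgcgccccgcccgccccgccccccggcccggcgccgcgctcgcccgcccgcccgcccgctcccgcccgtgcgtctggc
Each held exactly 1 match. It began 196 bases before the start of Id2 (CAGCTG), 223 bases before that of Nfil3 (CAGCTG), 60 bases before that of Bcl6 (CACGTG) and 129 bases before that of Zbtb18 (CATCTG). The word CANNTG stands in 66.2% of the 32851 promoter windows of the table, so holding it does not set the 4 genes apart. The Zbtb18 match is also, on the other strand, the word CAGATG that Zbtb18 itself binds, which 14.4% of all windows hold. Neither strand held the AP-1 word TGANTCA, the word GGAAGT of ETS factors, GAAANNGAA for the IRF family, the Nfil3 word TTANGTAA or the word TTCCNNGAA that belongs to Bcl6. The share of G and C was 62.8% for Id2, 81.6% for Nfil3, 58.4% for Bcl6 and 84% for Zbtb18, against a median of 52.4% over all windows. Which open interval of mm9 holds each start was not determined.

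More of the 4 windows was listed as open in cDC1 than in pDC: 41875 bp (5.58%) in cDC1, against 26144 bp (3.49%) in pDC. The excess lay in Id2 (35 intervals in cDC1 and 20 in pDC), Bcl6 (25 in cDC1 and 13 in pDC) and Zbtb18 (16 in cDC1 and 10 in pDC), whereas Nfil3 had 7 in cDC1 and 8 in pDC. The same order held for footprints, short stretches of protected DNA inside an interval: Id2 had 167 in cDC1 and 109 in pDC, Bcl6 had 153 in cDC1 and 69 in pDC, Zbtb18 had 84 in cDC1 and 82 in pDC, and Nfil3 had 45 in cDC1 and 63 in pDC. A larger number in cDC1 holds for the whole lists as well, so these counts were read against them.

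Of the cDC1 intervals, 41 of 83 had no overlap in the pDC list (49.4%, 95% Wilson interval 38.9% to 59.9%), against 50.9% of all cDC1 intervals. Of the pDC intervals, 8 of 51 had no overlap in the cDC1 list (15.7%, 8.17% to 28.0%), against 19.7% of all pDC intervals. Over the 4 loci together, intervals of one cell type were thus about as frequent as in the genome. The loci spread around that value: 15 of 25 cDC1 intervals were without a pDC counterpart at Bcl6 (60%, 40.7% to 76.6%), 19 of 35 at Id2 (54.3%, 38.2% to 69.5%), 6 of 16 at Zbtb18 (37.5%, 18.5% to 61.4%) and 1 of 7 at Nfil3 (14.3%, 2.57% to 51.3%). Each of these intervals covers the whole-list share.

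**Figure D1:**
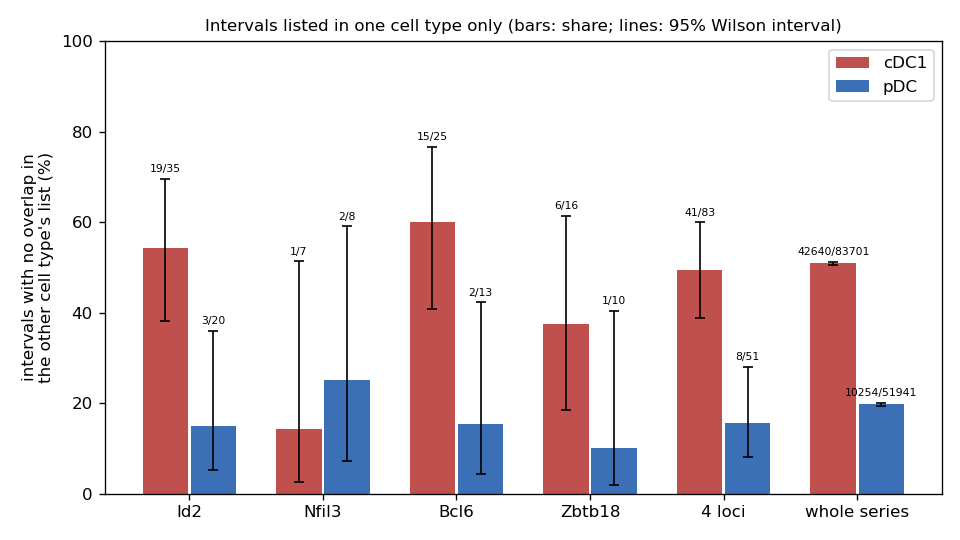
Share of intervals without an overlap in the other cell type's list, in percent, for cDC1 (red) and pDC (blue) at each locus, over the 4 loci and over the whole lists; lines are 95% Wilson intervals and labels give the counts. The 4 loci together stand at 49.4% in cDC1 and 15.7% in pDC, beside 50.9% and 19.7% in the whole lists.

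The merged libraries of the cell types differed in depth, which bears on regions missing from a list. The depth at a summit was recovered from the deposited values: the fold enrichment and the −log10 p of a MACS2 summit together fix the whole-number pileup (the number of reads or fragments that cover the summit) and the background it was tested against. This gave a whole-number pileup, within 0.001 of the listed −log10 p, for 99.9% of cDC1 summits and for 100% of pDC summits. The genome-wide background was 12.01 in cDC1 and 6.88 in pDC, a ratio of 1.75, and at that background the smallest listed pileup was 24 in cDC1 and 17 in pDC. Over the 40721 regions listed in both cell types, the pileup ratio cDC1/pDC had a median of 3.14. Of the 41 intervals listed in cDC1 only, 33 (80.5%) had a pileup that, divided by 3.14, would still reach 17, against 56.8% of all intervals listed in cDC1 only. With the background of the nearest pDC summit in place of the genome-wide one, 28 of 41 would have reached the smallest pileup listed in pDC at a like background. The other 13, of which 9 are at Id2, were too weak in cDC1 for their absence from the pDC list to be read. For this local reckoning no share over all intervals listed in cDC1 only is at hand. The nearest pDC summit lay up to 20600 bp away. All 8 intervals listed in pDC only would have been listed in cDC1 by either reckoning. At the genome-wide background this also held for all 10254 intervals listed in pDC only. It could not fail there, because even the smallest pDC pileup, 17, multiplied by 3.14 lies above 24. That result therefore says nothing particular about these loci. For the local reckoning no share over all intervals listed in pDC only is at hand either.

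To compare the cell types where both were open, tag counts were used. The value that the authors give for each footprint was read as an unscaled count of tags; the window of counting is not given, and neighbouring footprints of one region may share tags. In a region, the pair of footprints that share at least 50% of both and hold the most tags was taken, and its ratio cDC1/pDC was divided by 3.28, the median of all 91319 pairs in the genome. This scaled tag ratio is 1 for a region of average difference, and a region was called at 2-fold. The pileup ratio divided by its own median of 3.14 is called the scaled pileup ratio. Each pileup is that of the list's own highest summit in the region, so the summits of the cell types can differ in position. Both measures come from the same reads, so one is no independent check of the other. The choice of divisor decides how many regions count as higher in cDC1. Divided instead by 1.75, the ratio of the genome-wide backgrounds, the pileup ratio was above 1 in 31 of 41 regions. The genome-wide median of 3.14 is itself above 1 by this divisor, and the genome-wide share above 1 was not computed. The 2-fold limit was passed by 21 regions towards cDC1 (39.9% of regions in the genome) and by 3 towards pDC (4% in the genome). The tag ratio so divided passed it in 18 of 33 regions towards cDC1 (42.8% in the genome) and in 3 towards pDC (3.36%). Divided by 2.55, the ratio of the mean tag counts, it passed in 13 towards cDC1 (16.8%) and in 5 towards pDC (7.43%).

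Of the 41 regions listed in both cell types, 33 held a pair. In 7 of the 33 the scaled tag ratio was at least 2-fold higher in cDC1 (21.2%, against 8.93% of such regions in the genome), and in 8 it was at least 2-fold higher in pDC (24.2%, against 12.6% in the genome). Neighbouring regions are not independent, and these shares carry no test. By summit pileup, 8 of 41 were at least 2-fold higher in cDC1 (9.44% in the genome) and 9 of 41 in pDC (13.8% in the genome). By fold enrichment, with the ratio divided by its median of 1.45, none of 41 was 2-fold higher in cDC1 (5.8% in the genome) and 5 of 41 were in pDC (6.34% in the genome), while the undivided ratio gave 9 towards cDC1 (20% in the genome) and 0 towards pDC (2.13%). The loci together held regions that stood out in either direction. The 3 cDC1-high calls at Bcl6 met none in the other direction, and the 1 call at Nfil3 was pDC-high, while Id2 had 2 cDC1-high and 4 pDC-high calls, and Zbtb18 had 2 cDC1-high and 3 pDC-high calls. Of the 15 regions called by tags, 14 kept their side of 1 under each of the 7 other measures and scalings tried for tags, and 5 stayed past 2-fold under all of them. Those of the 7 that only changed the divisor of the tag ratio could not move a called region across 1. A smaller divisor also could not take a cDC1-high call below 2-fold. Fold enrichment was not among the 7, and by it the called region chr12:25849507-25850028 changed sides, at 1.16.

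Fold enrichment gave fewer calls, and it is not a plain measure of depth here. The stated call of MACS2 switches the local background off, yet only 26.1% of cDC1 summits and 17.6% of pDC summits sat at the genome-wide background, so that most fold enrichments are relative to a higher, local one. At Id2, the region with the highest cDC1 pileup had a fold enrichment of 5.60 in cDC1 and 7.41 in pDC, although that pileup was 1045 in cDC1 and 196 in pDC. The lists also reach down to a −log10 q of 1.51 within the windows, although the general methods name a filter on q.

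**Figure D2:**
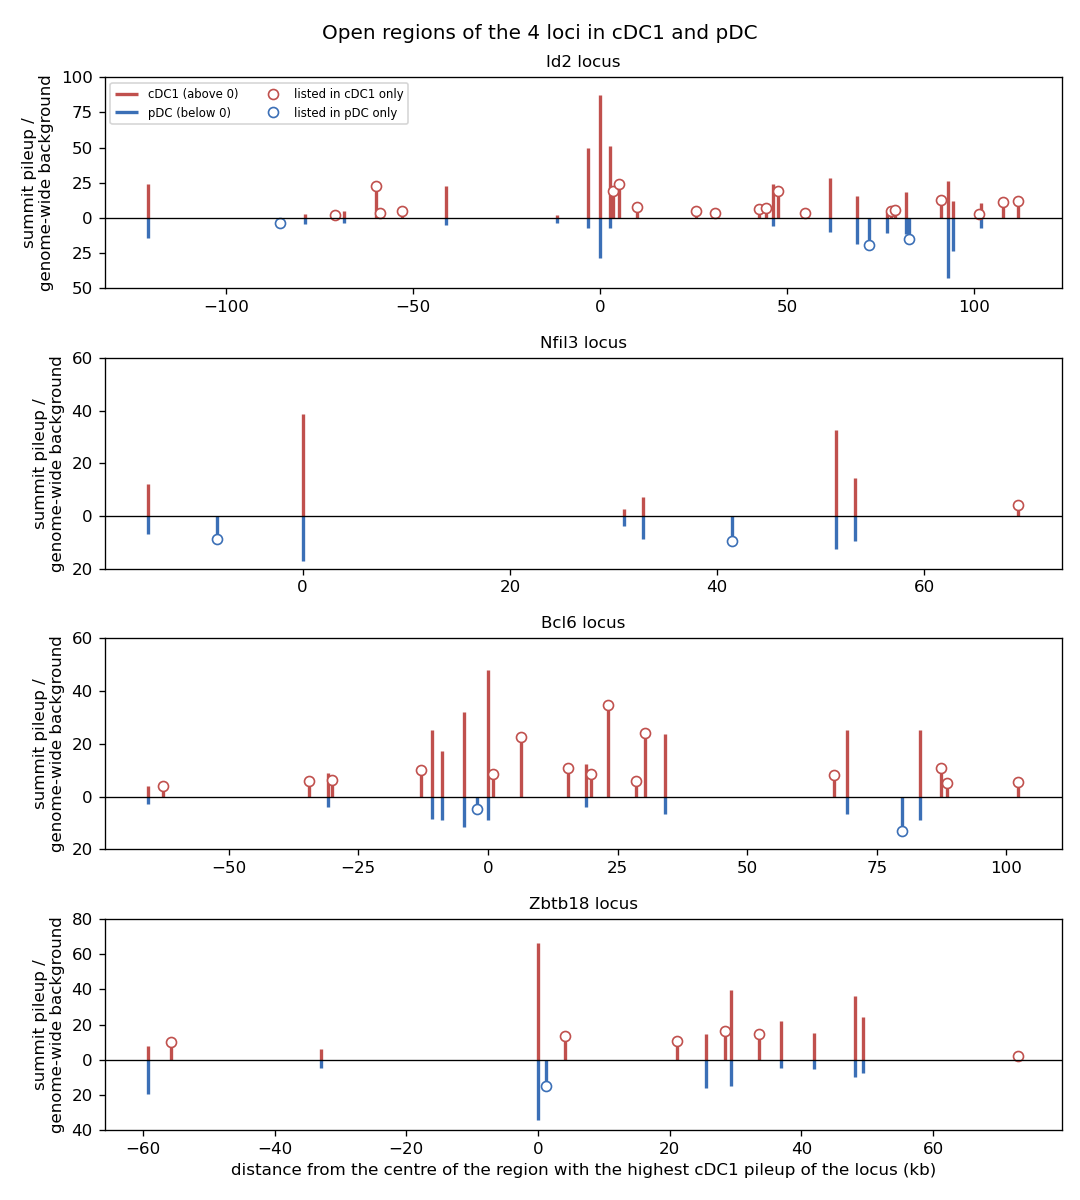
Summit pileup of every region divided by the genome-wide background of its cell type (12.01 in cDC1, 6.88 in pDC), drawn upward in red for cDC1 and downward in blue for pDC, against the distance in kb from the region with the highest cDC1 pileup of the locus; open circles mark regions listed in one cell type only. At Id2 the tall cDC1 lines gather around 0, and the tallest pDC line stands 93.1 kb away.

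At Id2, the region with the highest pileup in cDC1 and the one with the highest pileup in pDC lay 93.1 kb apart. The former was strong in pDC as well: its pDC pileup of 196 was exceeded in the window only by the 296 of the latter. The 6 regions within 10 kb of the strongest cDC1 region (chr12:25777140-25791056) were each listed in cDC1, and 3 of them in cDC1 only. The strongest, chr12:25780593-25781474, had a pileup of 1045 in cDC1 and 196 in pDC and its −log10 q was 410 (cDC1) and 98.0 (pDC). Its best pair held 2243 tags in cDC1 and 408 in pDC, a scaled ratio of 1.68 (1.51 to 1.87), so that it was higher in cDC1 without reaching 2-fold. The footprint with the most pDC tags, 428, was the neighbouring one, and its cDC1 partner held 1996.

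The regions on either side of it differed more. The region chr12:25777140-25778429 had a pileup of 599 in cDC1 and 48 in pDC, a scaled pileup ratio of 3.97, and chr12:25783455-25783977 had 610 in cDC1 and 48 in pDC, a scaled ratio of 4.04. These were the 2 highest pileup ratios of the 41 shared regions. In the first, the summits stood at different positions, 25777814 in cDC1 and 25777354 in pDC. By scaled fold enrichment the 2 regions stood at 1.33 and 1.45, short of 2-fold. Both lacked a footprint pair and are named here because of their pileups: the footprint with the most tags held 1188 in cDC1 and 66 in pDC in the first, and 1442 in cDC1 and 120 in pDC in the second. Further along, chr12:25785868-25786279 had a pileup of 291 in cDC1 and was not listed in pDC, where a pileup of 92.6 would be expected at the median ratio and 37 would have been enough at the background of the nearest pDC summit.

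A stretch of 26.2 kb further along the chromosome, chr12:25849507-25875720, showed the opposite. It begins 68.7 kb from the strongest region, counted between centres, and ends with a region at 94.4 kb. It was delimited after the values were seen, by the first and the last region called higher in pDC. All 5 of its regions listed in both cell types had a scaled pileup ratio below 1 (0.24 to 0.89, median 0.34), 4 of them also when divided by 1.75, whereas by scaled fold enrichment 2 of the 5 lay above 1 (1.16 and 1.33). In addition, 2 of the 3 pDC-only regions of the Id2 window lay in it, beside 3 listed in cDC1 only. In the rest of the window, 6 of 11 shared regions were above 1, with a median of 1.59. All 4 regions of the stretch that held a pair were among the 8 called higher in pDC over the 4 loci. The borders placed every such call of Id2 inside the stretch, and pileups come from the same reads. The contrast with the rest of the window is thus a description and no support for the stretch.

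The strongest pDC interval of all 4 loci lay in this stretch. In chr12:25873382-25874894 it was 134 in cDC1 and 166 in pDC by −log10 q, which puts the region above 79.6% of all cDC1 intervals and above 99.1% of all pDC intervals. The pileup was 313 in cDC1 and 296 in pDC. This region, 93.1 kb from the strongest cDC1 region, was not uniform inside. The best pair, 37 bp past its centre, held 716 tags in cDC1 and 478 in pDC, a scaled ratio of 0.46 (0.41 to 0.51), and the pair at 68 bp held 689 in cDC1 and 497 in pDC (0.42). The pairs 606 and 561 bp before the centre held 606 and 725 tags in cDC1 and 126 and 145 in pDC, with scaled ratios of 1.47 and 1.53. The pairs near the left end and those near the centre of one open region, covered by 1 interval in cDC1 and by 2 in pDC, thus lay on opposite sides of the genome-wide median.

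**Figure D3:**
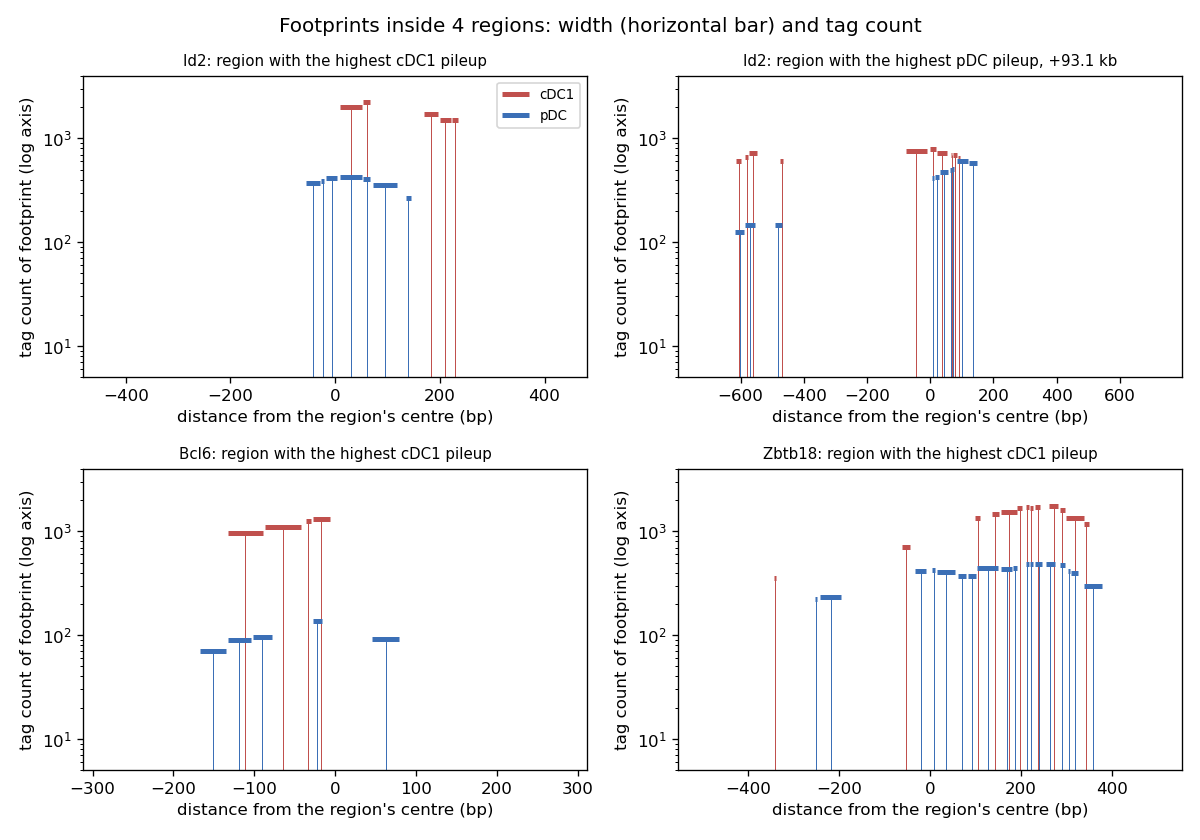
Footprints inside 4 regions, drawn as horizontal bars as wide as the footprint at the height of its tag count (log axis), against the distance in bp from the centre of the region, with cDC1 in red and pDC in blue. In the Id2 region at 93.1 kb, paired cDC1 footprints hold 606 and 725 tags on the left and 716 and 689 on the right, and their pDC partners hold 126 and 145 on the left and 478 and 497 on the right.

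The neighbour chr12:25875191-25875720 had 310 tags in cDC1 and 319 in pDC in its best pair, a scaled ratio of 0.30 (0.25 to 0.35), and a fold enrichment of 2.77 in cDC1 and 4.82 in pDC. In chr12:25857360-25857850 the single pair held 111 tags in cDC1 and 199 in pDC, a scaled ratio of 0.17 (0.13 to 0.22), the lowest of the 33. Its pileup was 54 in cDC1 and 73 in pDC, so the raw count was also the lower one in cDC1, and the ratio stayed below 0.5 (0.42 by pileup) when divided by 1.75. The 4 tag calls of the stretch include chr12:25849507-25850028, which passed narrowly, with 363 tags in cDC1 and 222 in pDC (0.50, 0.42 to 0.59); its fold enrichment ratio, divided by its median, lay on the other side, at 1.16.

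Regions listed in pDC only at Id2 were led by chr12:25852681-25853206, with a −log10 q of 52.8, a pileup of 134 and 7 footprints in pDC. At the median ratio the cDC1 pileup would be 421, and 29 was listed at a like background. Next came chr12:25863298-25864057 in the same stretch, with a −log10 q of 48.3 and 11 footprints in pDC.

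On the other side of the strongest region, chr12:25720875-25721340 was the leading region listed in cDC1 only, with a −log10 q of 222 and a pileup of 276. It held 1 footprint, of 527 tags, and the nearest pDC summit lay 8729 bp away. The shared region chr12:25739247-25740094 held 710 tags in cDC1 and 88 in pDC (2.46, 1.97 to 3.11), and chr12:25827069-25827607 held 668 in cDC1 and 101 in pDC (2.02, 1.64 to 2.52). These were the 2 calls of Id2 in favour of cDC1 by tags. The second strongest cDC1 interval of the window, in chr12:25841941-25842731, reached a −log10 q of 272 (cDC1) and 32.5 (pDC), with 794 tags in cDC1 and 144 in pDC (1.68). The region with the most footprints in either cell type lay at the far edge, chr12:25659541-25660708, with 15 in cDC1 and 16 in pDC, of which 11 in each were found again in the other. Its best pair held 582 tags in cDC1 and 228 in pDC (0.78). The other 2 regions, both weak and without a footprint pair, passed towards pDC by fold enrichment and by scaled pileup (0.33 and 0.36). By fold enrichment, chr12:25701913-25702245 had 2.31 in cDC1 and 3.61 in pDC, and chr12:25769273-25769577 had 2.23 in cDC1 and 3.30 in pDC, with pileups of 29 and 28 in cDC1 and 28 and 25 in pDC.

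Nfil3 had nearly equal numbers of intervals, and by tags it lay on the pDC side. None of its 4 paired regions had a scaled tag ratio above 1 (median 0.58, against 0.99 over all paired regions of the genome), although the median over all 14 pairs of the locus was 0.95. By contrast, 3 of its 6 shared regions were above 1 by pileup. Divided by 1.75, 2 of the 4 tag ratios were above 1, with a median of 1.095. The genome-wide median tag ratio of 3.28 also lies above 1 by that divisor, so these 2 do not place the locus on the cDC1 side. Its strongest region, chr13:53024560-53025558, reached a −log10 q of 366 (cDC1) and 65.1 (pDC), with 13 footprints in cDC1 and 16 in pDC. The best pair held 1126 tags in cDC1 and 362 in pDC, a scaled ratio of 0.95 (0.84 to 1.07), and its 8 pairs ranged only between 0.94 and 1.03. By tags this is the value of an average region, while the scaled pileup ratio was 1.25 (1.02 to 1.54), from a pileup of 463 in cDC1 and 118 in pDC. The second, chr13:53075782-53077304, reached 215 (cDC1) and 27.1 (pDC), and held 17 footprints in pDC, the most of the window there. Its single pair, at the edge of the region, held 157 tags in cDC1 and 74 in pDC (0.65), while the pileup was 392 in cDC1 and 85 in pDC (1.47), so the measures lay on opposite sides of 1.

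The single call at Nfil3 was chr13:53055909-53056298, a weak region with 61 tags in cDC1 and 75 in pDC (0.25, 0.17 to 0.35) and a pileup of 31 in cDC1 and 27 in pDC. Its neighbour chr13:53057678-53058169 came close, with 223 tags in cDC1 and 131 in pDC (0.52, 0.42 to 0.65). Between them and the second strong region lay chr13:53066147-53066757, the strongest region listed in pDC only, with a −log10 q of 29.6 and a pileup of 65 in pDC, where 204 would be expected in cDC1. It was also the second strongest pDC interval of the window. The other pDC-only region, chr13:53016498-53017052, had a −log10 q of 26.8. The only cDC1-only region, chr13:53093940-53094346, had a pileup of 50 and was too weak to tell from a region missed in pDC.

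At Bcl6 most shared regions lay on the cDC1 side by tags and by pileup. The scaled tag ratio was above 1 in 8 of 9 paired regions (15784 of 31914 in the genome), with a median of 1.84. The scaled pileup ratio was above 1 in 9 of 10 (20353 of 40721 in the genome), against 6 of 10 by scaled fold enrichment (20360 of 40721). Divided by 1.75, the pileup ratio was above 1 in all 10, but so is the genome-wide median of 3.14. The strongest region in cDC1, chr16:23993272-23993814, held 1309 tags in cDC1 and 137 in pDC in its best pair (2.92, 2.45 to 3.50), the highest tag ratio of the 4 loci. Its pileup was 577 in cDC1 and 61 in pDC, and the −log10 q stood at 356 (cDC1) and 17.6 (pDC). A second pair in the same region held 960 tags in cDC1 and 89 in pDC (3.29). The region passed 2-fold under all 7 alternatives tried for tags, though not by fold enrichment (1.70). The divisors 2.55 and 1.75 among them could only raise its tag ratio, so those alternatives could not fail.

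The other 2 calls were chr16:23982371-23983188, with 644 tags in cDC1 and 81 in pDC (2.43, 1.92 to 3.10), and chr16:24062188-24063317, with 674 in cDC1 and 97 in pDC (2.12, 1.71 to 2.65). The last held 16 footprints in cDC1 and 3 in pDC, the most of the window in cDC1, and the first held 11 in pDC, the most there. By pileup the first fell short of 2-fold, at 1.69. The exception to the direction was the outermost region, chr16:23927767-23928189, with 119 tags in cDC1 and 51 in pDC (0.71, 0.51 to 1.01), whose interval includes 1.

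Several of the strongest cDC1 regions at Bcl6 were not listed in pDC at all. In chr16:24016256-24017206 the −log10 q in cDC1 was 261, above 90.8% of all cDC1 intervals and second in the window, the pileup was 416 and the leading footprint held 888 tags. At the median ratio its pDC pileup would be 132, and 17 would have been listed at the background of the nearest pDC summit. Near it lay chr16:24023539-24024044, with a −log10 q of 172 and a pileup of 289, and chr16:23999391-24000337, with 156 and 273. Of the 15 cDC1-only regions, 13 were strong enough in cDC1 to be expected in the pDC list by the background of the nearest pDC summit. No whole-list share stands beside that count. The reverse was seen once with a strong region: chr16:24073184-24073614, listed in pDC only, had the largest −log10 q of the window in pDC, 41.2, with a pileup of 89 and 7 footprints. It lay between regions with scaled ratios above 1, 3.39 kb from the nearest cDC1 summit. The next in pDC, chr16:24027427-24027988, stood at a −log10 q of 172 (cDC1) and 20.4 (pDC), with 644 tags in cDC1 against 105 in pDC (1.87).

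**Figure D4:**
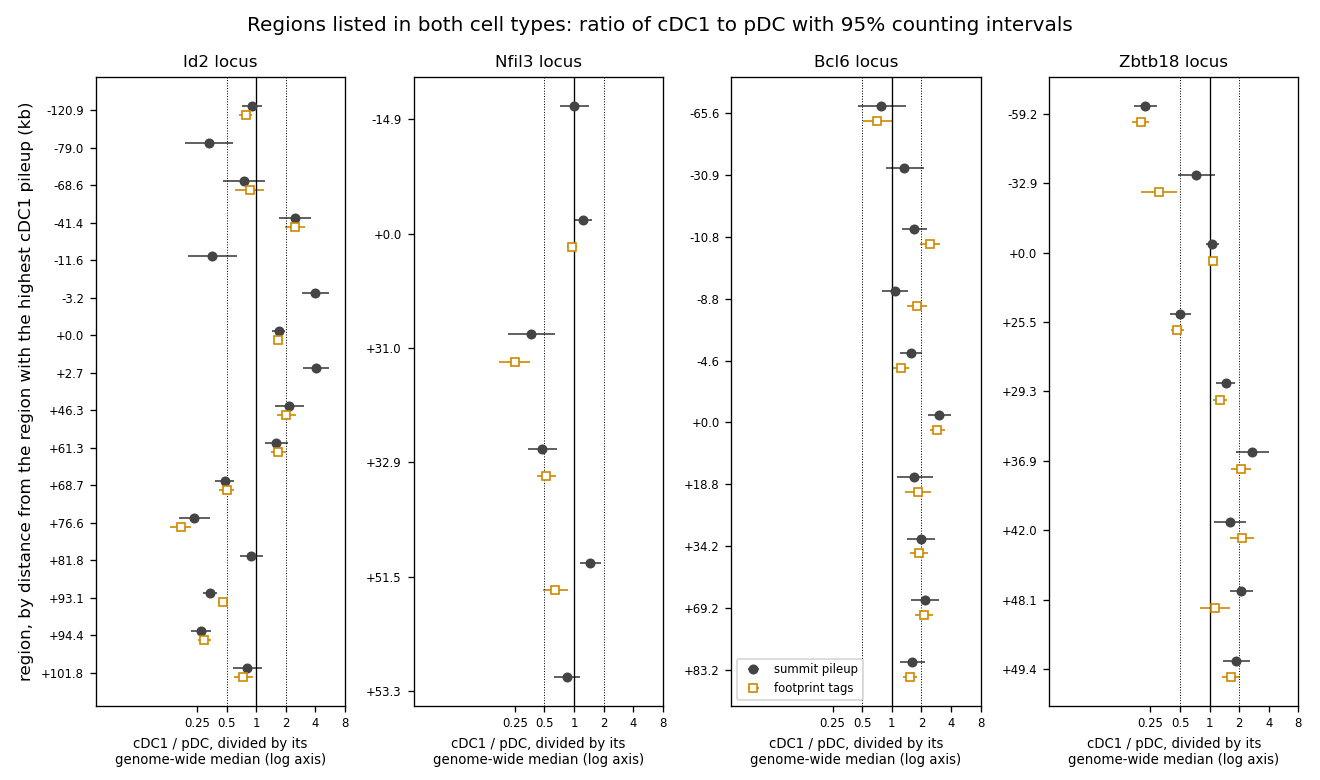
Ratio of cDC1 to pDC in each region listed in both cell types, divided by its genome-wide median (3.14 for summit pileup, filled circles; 3.28 for tags of the best footprint pair, open squares; log axis), with 95% counting intervals. Rows follow the chromosome and are labelled by the distance in kb from the region with the highest cDC1 pileup. Dotted lines mark 2-fold: the Bcl6 tag ratios lie right of 1 in 8 of 9 regions, and the Id2 regions from 68.7 to 94.4 kb lie left of it.

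At Zbtb18, the cDC1 region with the largest −log10 q of the 4 loci had a scaled ratio close to 1. In chr1:179371475-179372502 it was 535 in cDC1 and 111 in pDC, above 98.6% of all cDC1 intervals and above 96.1% of all pDC intervals. The region had 13 footprints in cDC1 and 18 in pDC, the most of the window in each. Its best pair held 1748 tags in cDC1 and 488 in pDC (1.09, 0.99 to 1.21), and its 6 pairs lay between 1.05 and 1.09. Directly beyond it began chr1:179372629-179373662, listed in pDC only, with 12 footprints, a −log10 q of 19.1 and a pileup of 103 in pDC.

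Both shared regions on the side with the lower coordinates were called higher in pDC, and the region between them, chr1:179316072-179316532, was listed in cDC1 only. In chr1:179312225-179313296, 59.2 kb away, the best pair held 165 tags in cDC1 and 254 in pDC (0.20, 0.16 to 0.24), the fold enrichment was 6.51 in cDC1 and 10.9 in pDC, and the pileup was 94 in cDC1 and 135 in pDC. This region, at a −log10 q of 43.8 (cDC1) and 89.9 (pDC), passed 2-fold by all 3 measures, and also under all 7 alternatives tried for tags. The alternative with a divisor above 3.28 could only lower its ratio, so that one could not fail. In chr1:179338786-179339366 the pair held 46 tags in cDC1 and 46 in pDC (0.31, 0.20 to 0.47), but the pileup of 75 in cDC1 and 33 in pDC gave 0.72, which is no call.

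On the other side the regions with a call differed in direction. In chr1:179397097-179397801 the pair held 388 tags in cDC1 and 252 in pDC (0.47, 0.40 to 0.55). That region fell just short of 2-fold by scaled pileup (0.503) and by scaled fold enrichment (0.515). In chr1:179408686-179409155 the best pair held 560 in cDC1 and 82 in pDC (2.08, 1.65 to 2.66), and in chr1:179413627-179414317 the pair held 389 in cDC1 and 56 in pDC (2.12, 1.60 to 2.86). By scaled pileup the former stood at 2.70 and the latter at 1.60, and by scaled fold enrichment at 1.81 and 1.35. The second strongest cDC1 interval, in chr1:179401063-179401564, reached a −log10 q of 302 (cDC1) and 38.4 (pDC) and stood at 1.28 (1.10 to 1.49). The leading region listed in cDC1 only was chr1:179400213-179400603, with a −log10 q of 68.7 and a pileup of 197, just before it. In chr1:179419855-179420408 the tags stood at 1.14 by a pair of 160 tags in cDC1 and 43 in pDC, and the pileup of 434 in cDC1 and 66 in pDC at 2.09.

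Footprints of the loci recurred in the other cell type about as often as in the genome. Of the cDC1 footprints, 129 of 449 were covered to at least 50% by a pDC footprint (28.7%, 24.7% to 33.1%), against 26.9% of all. Of the pDC footprints, 123 of 323 were covered by a cDC1 footprint (38.1%, 33.0% to 43.5%), against 40.7% of all. The lowest share in cDC1 was that of Bcl6, 33 of 153 (21.6%, 15.8% to 28.7%), and the highest that of Nfil3, 18 of 45 (40%, 27.0% to 54.5%). In pDC the lowest was that of Zbtb18, 23 of 82 (28.0%, 19.5% to 38.6%), and the highest that of Bcl6, 33 of 69 (47.8%, 36.5% to 59.4%). Footprints of one region are neighbours and not independent, so these intervals are narrower than the true error.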

How the data were processed

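Per the study's methods and the submitters' processing notes, the authors trimmed reads (Trim Galore), aligned them to mm9 (Bowtie2), removed duplicates and reads of low mapping quality (SAMtools), and called peaks (MACS2) and footprints (HINT-ATAC) on merged replicates; no source used here names versions. In the peak lists the authors deposited, per summit, a fold enrichment (a ratio over background), a −log10 p and a −log10 q. In the footprint lists the deposited value is a tag count, not scaled for depth; whether both ends of a fragment were counted is not given.

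Peak lines of identical start and end made 1 interval with the values of its strongest summit. Intervals were shared at 1 bp, footprints at 50% of their bases by a single footprint. Pileups were recovered from fold enrichment and −log10 p (tolerance 0.001). bedtools 2.31.1 found overlaps; scipy 1.17.1, pandas 2.3.3 and numpy 2.4.6 under Python 3.11.15 did the rest, and matplotlib 3.10.9 drew the figures. Pileup recovery and calls were tested on simulated data. Depth enters through the genome-wide background (12.01 in cDC1, 6.88 in pDC). Ratios of counts have exact 95% intervals, shares Wilson intervals.

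Named in each locus were, per cell type, the 2 intervals with the largest −log10 q, the one with the most footprints and the leading region listed in 1 cell type only, and every shared region past 2-fold by tags or fold enrichment. Other regions, and those named for their pileup, were chosen after their values were seen, as were the pileup measure and the division by background. Members, windows and lists were chosen with earlier results of these data known. RefSeq promoters matched all 4 genes; mm9 sequence was not used. Alternatives were other overlaps, limits on q, list lengths, windows, scalings and fold limits.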

Additional observations from a re-analysis of the deposited data

How the results depend on the processing

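No paired analysis was possible because the replicates of each cell type were merged before deposit, so no fit without 1 replicate could be made either. With the cDC1 list limited to the length of the pDC list, 36.8% of cDC1 and 25.5% of pDC intervals at the 4 loci had no overlap. With both lists held to a −log10 q limit of 50, 84.2% in cDC1 and 33.3% in pDC had none. That limit was the same for 2 lists of unlike depth. The shares over the whole lists were not computed at these settings, so these values cannot be read as particular to the 4 loci. For regions higher in one cell type by tags, the main counts were 7 in cDC1 and 8 in pDC. They came to 14 in cDC1 and 10 in pDC at a 1.5-fold limit (18.2% and 22.5% in the genome), to 13 in cDC1 and 5 in pDC with the ratio of mean tag counts (2.55) as divisor (16.8% and 7.43%), and to 18 in cDC1 and 3 in pDC with the ratio of genome-wide backgrounds (42.8% and 3.36%); pileups divided by that ratio gave 21 in cDC1 and 3 in pDC (39.9% and 4%). By fold enrichment, the main counts were 0 in cDC1 and 5 in pDC of 41 regions (5.8% and 6.34% in the genome). At 1.5-fold they were 5 in cDC1 (12.2%, against 15.5% in the genome) and 10 in pDC (24.4%, against 15.2%). With the ratio left undivided they were 9 in cDC1 and 0 in pDC (20% and 2.13% in the genome). At 1 bp, 35.9% of cDC1 and 48.6% of pDC footprints were shared, and 35.3% of cDC1 footprints with that list limited to the pDC length. Whole-list shares were not computed for these footprint settings either. Of the 15 regions called by tags, 1 changed sides: the Zbtb18 region with 46 tags in each cell type, at 1.30 by pileup divided by the background ratio. The divisors tried for the tag ratio could not by themselves bring a called region to the other side. The divisions by background and the pileup were added after the data were seen.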
